A study of Mus musculus with 6 samples.

Results

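Of 42006 mouse gene probes on a 2-colour array, 352 hold a Pumilio recognition element and are described here. They were chosen by sequence alone: a probe was taken when its 60 bases held TGTANATA, the DNA form of the RNA element UGUANAUA with any base at N, and did not hold the poly(A) signal hexamer AATAAA. The element occurred in 408 probes (0.971% of all), 56 of which carried the hexamer and were left out. A comparison set of 199 probes held the reverse complement TATNTACA (0.474% of all probes, 0.548% before exclusions). Another of 147 probes held a mutated element ACAANATA (0.35%, 0.443% before exclusions), whose GC content equals that of the element. The last set was 38544 other probes without the element on either strand. None of these sets held the hexamer, and a match is a match of letters, not a shown binding site. The files do not pair probe identifiers with genes and give no genome position or strand for any probe, so no gene is named, and the labelled cell types could not be checked against marker genes.

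Pumilio proteins are RNA-binding proteins of the PUF family. Their repeats read the bases of the element in turn, mostly in 3′ untranslated regions, and they recruit factors that shorten poly(A) tails, repress translation and shorten the life of bound mRNAs. In oocytes, which store mRNA for later use, Pumilio acts together with cytoplasmic polyadenylation element binding protein on the timing of translation of maternal mRNAs.

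The arrays compared 3 groups of 2 pools of mouse oocytes. SN oocytes (surrounded nucleolus, 50 oocytes in each pool) have a ring of chromatin around the nucleolus, and NSN oocytes (not surrounded nucleolus, pools of 41 and 44) lack it; the remaining group is labelled only oocyte, with 10 per pool. The protocol speaks of antral oocytes from wild type and Matertm/tm mice aged 39 weeks without saying which pool came from which, and the characteristics name embryonic stem cells for all arrays. Separate animals for the pools are not stated, so a p-value here speaks only for how these pools spread, possibly for technical reasons. Oocyte RNA, amplified in 2 rounds, carried Cy3, and a Cy5 reference of RNA from 11 cell lines mixed 2:1 with RNA of 129ES cells (MC1 in the series' design text) lay on every array, with dyes never swapped. The SN and NSN arrays shared slide 3 and each oocyte array had a slide of its own, so slide, pool size and group cannot be told apart in the comparisons with oocyte. Between 22010 and 29780 probes per array were well above background in Cy3, the fewest in oocyte. Levels below are log2 ratios of Cy3 over Cy5, and the number of arrays limits their precision.

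The members described singly were chosen by a stated rule and are shown as 30-base stretches of their 60-base probes, read 5′ to 3′ as the files print them, with the element in capitals. The first set holds those with the largest or best supported differences between groups.
Z00034950-1: TGTAAATAgactaaaaagcatgtagaggac
Z00030048-1: tgctgtttgtcagtccatgatTGTAAATAa
Z00023567-1: agatactgtacatgcactgcTGTAGATAta
Z00016189-1: aaagtcggtgtTGTACATAgcataaaaatc
Z00050270-1: ccttcatttgaTGTAAATAttgtgagttgc
Z00064768-1: tatataccttcTGTAAATAactttttttga
Z00005790-1: tactttgaaacTGTAAATAacaccaggaag
Z00017827-1: ctgagcccaatttgataTGTAAATAcacct
Z00075085-1: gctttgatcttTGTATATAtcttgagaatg
Z00034061-1: acatacacataTGTATATAgacacatacta
The second set holds the 7 members in which the element occurs more than once, chosen because repeated elements in a transcript are a feature of known Pumilio targets.
Z00024716-1: ggtgTGTAAATAgTGTACATAatgtgagaa
Z00036051-1: ctTGTAAATActgttattTGTATATActgt
Z00007901-1: ctTGTAAATAtgtgcaTGTAAATAgttgtg
Z00017964-1: agTGTAAATAtgacagaacttgtacctatc
Z00025569-1: ctTGTAGATAttcacggctcattttagagc
Z00023317-1: gTGTAGATAtgTGTAGATAcTGTAGATAct
Z00057925-1: tcTGTATATAgcgtgatttcagattgtaaa
Counted from the 5′ end of the probe, the further element of Z00017964-1 starts at base 52, that of Z00025569-1 at base 46 and that of Z00057925-1 at base 28, all of which lie wholly or partly outside the stretches shown.

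The element shows 4 forms, which differ in the base at N, the fifth of the element. The forms are printed with their reverse complements, since the counts on the opposite strand differ between them.
TGTAAATA: reverse complement TATTTACA
TGTACATA: reverse complement TATGTACA
TGTAGATA: reverse complement TATCTACA
TGTATATA: reverse complement TATATACA
Among probes without the hexamer, TGTAAATA was found in 134 and its reverse complement in 53, a ratio of 2.53. TGTATATA was found in 97 against 54, a ratio of 1.8. TGTACATA was found in 81 against 62, a ratio of 1.31. TGTAGATA, the form with G, was found in 45 probes and its reverse complement in 45. The excess on the written strand was thus seen for A, T and C at that place, and the counts for G were equal. In the mutated element the written strand was the rarer one for A (48 against 139), C (33 against 67) and T (32 against 43), and for G the counts were 39 and 41. These are counts of designed probes of unknown strand and carry no replicate error.

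Probes with the element gave signal more often than probes of the same GC content. In Cy3, 68.5% and 63.9% of the 352 exceeded background clearly (the scanner's well-above-background mark) on the arrays of oocyte, 78.1% and 77.6% on those of SN, and 75.3% and 76.7% on those of NSN. The other probes, weighted to the same numbers of G and C bases, gave 52.6% and 49.1%, 65.4% and 60.8%, and 60.1% and 61.2% on the same arrays. The element's share was the higher on each of the 6 arrays. The reverse complement gave 53.8% and 47.2%, 65.8% and 60.8%, and 58.8% and 62.8%, close to its own GC-weighted values of 52.2% and 48.6%, 65.2% and 60.5%, and 59.9% and 60.9%. The mutated element gave 46.9% and 45.6%, 62.6% and 55.8%, and 57.8% and 58.5%. The reference channel showed the same order, with 75.3% to 78.1% of the element's probes well above background in Cy5 against 62.5% to 65.5% of others of equal GC content and 62.3% to 68.3% of the reverse complement. The difference was therefore present in both channels. Both were read on the same spots, so a difference in the RNA cannot be told apart from a property of the probes. No test was made of these shares, since probes are not replicates.

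Of the 352 probes, 277 (78.7%) reached that mark in Cy3 on 2 or more of 6 arrays, the rule for testing a probe, and 75 were not. By that rule 64.3% of other probes of equal GC content passed, 64.3% of the reverse complement probes (128 of 199) and 59.9% of the mutated element probes (88 of 147). The mark was reached on all 6 arrays by 217 probes (61.6%, against 48.7% of all probes), on none by 60 (17%, against 23.2%) and on 1 array by 15. Only 9 passed on exactly 2 arrays, 3 of them through the SN arrays alone. A probe that passes only through groups where it is high had to differ, also where it passed on more than 2 arrays of SN and NSN. On both SN arrays and no oocyte array the mark was reached by 27 of the 352 (7.67%, against 8.71% of all probes). The shares that passed also differed by form, with 85.8% of the 134 probes holding TGTAAATA, 80.2% of the 81 with TGTACATA, 75.3% of the 97 with TGTATATA and 64.4% of the 45 with TGTAGATA, a probe with several forms counting under each. Other probes with the GC content of each form passed at 63.9% (A), 65.2% (C), 62.5% (T) and 67.7% (G). Of the 4 forms, the one with G alone had a share below that of its GC-weighted others.

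Among tested probes, those with the element were also brighter. Their Cy3 level lay above the median of tested other probes of the same GC content by a median of 0.92 and 1.06 on the log2 scale in the oocyte pools, 1.15 and 1.1 in the SN pools and 1.33 and 1.25 in the NSN pools. The corresponding Cy5 values lay between 0.99 and 1.15. For the reverse complement the Cy3 values lay between -0.54 and 0.36 and the Cy5 values between 0.13 and 0.51, and for the mutated element between -0.094 and 0.26 and between -0.11 and 0.016. Both dyes were higher, and the ratio of the dyes differed less. The median log2 ratio of the 277 tested members was 0.15 and 0.27 in oocyte, 0.45 and 0.50 in SN, and 0.53 and 0.46 in NSN, against 0.055 and 0.037, 0.18 and 0.18, and 0.17 and 0.16 over all tested probes. Against other probes of equal GC content and Cy3 level the direction turned. That matching holds Cy3, the numerator of the ratio, equal, so the turn can follow from the matching and is no result of its own. The members' ratios then had medians of -0.18 and -0.11 in oocyte, -0.0067 and -0.12 in SN, and -0.12 and -0.14 in NSN. Those of the reverse complement lay between -0.16 and -0.0085, and those of the mutated element between -0.008 and 0.13. With no dye swap, any dye bias of a probe enters these ratios and drops out only when groups are subtracted. On all 6 arrays 53 of the 277 (19.1%) were at least 2-fold above the reference and 27 (9.75%) at least 2-fold below it, against 16.1% and 13.6% of all tested probes.

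SN and NSN oocytes, the classes labelled independently on the arrays according to the series' design, gave no called difference among probes with the element. limma called 0 of the 277 tested members at an adjusted p under 0.05, and 0.0% of all 29044 tested probes. Without adjustment 28 members (10.1%) had a limma p under 0.05, against 10.8% of all tested probes, and the smallest adjusted p was 0.125. The median NSN minus SN difference of the members was 0.008 on the log2 scale (quartiles -0.17 and 0.14), against 0.03 over all tested probes, -0.029 for the reverse complement and 0.059 for the mutated element. The members' array medians spread within groups with an SD of 0.041 (n = 2 per group), more than this difference. Set against the other probes of equal GC content and Cy3 level, the median was -0.0068 over the 262 members with at least 10 such neighbours (SD 0.055), -0.021 for the reverse complement and 0.019 for the mutated element. Groups did not overlap, NSN higher, for 55 members (19.9%, against 24.2% of all tested probes), and NSN lower for 66 (23.8%, against 20%).

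The far tail lay on the side of lower signal in NSN, as it did over the whole array. At least 2-fold lower in NSN were 11 of the 277 members (3.97%, against 2.39% of all tested probes and 3.91% of the reverse complement probes), and 0 were at least 2-fold higher (0.22% of all). The differences of the 11 ranged from -2.90 to -1.01 and all 11 had groups that did not overlap, but none was called. The 11 were picked by this difference on the same arrays. Their lack of overlap and their lower NSN values are thus largely given by the choice and are no support of their own. Their median log2 ratio on the oocyte arrays was -2.20 and -1.79, in SN it was -0.13 and -0.14, and in NSN it was -1.42 and -1.96. Only 5 of these probes reached the mark on every array. The count of calls depended on the fit, with 3 members called lower in NSN under median centring in place of loess (1.08%, against 0.372% of all tested probes) and 2 with all 6 arrays in one fit (0.722%, against 0.3%).

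Z00023567-1 had the smallest adjusted p of the members between the classes. Its log2 ratio was -4.56 and -4.53 in oocyte, -3.99 and -4.19 in SN, and -5.55 on both NSN arrays. The groups did not overlap, and the NSN minus SN difference was -1.46 (95% interval -1.82 to -1.1, limma adjusted p = 0.125). NSN was the lowest, but against oocyte its difference turned to 0.65 under median centring. Z00016189-1 measured -2.19 and -2.04 in SN but -3.55 and -3.82 in NSN. NSN was lower by a difference of -1.57 (limma adjusted p = 0.126, interval -1.99 to -1.15). It was not well above background on the oocyte arrays, where it measured -4.06 and -3.55. On the higher side, Z00034950-1 measured 0.13 and 0.11 in SN but 0.73 and 0.84 in NSN, which is 0.66 higher (limma adjusted p = 0.237, interval 0.33 to 1.00). Z00030048-1 measured 1.20 and 1.38 in SN but 1.95 and 1.86 in NSN, which is 0.61 higher (limma adjusted p = 0.282, interval 0.25 to 0.97). Both were highest in oocyte, at 2.92 and 2.80 and at 3.37 and 3.64. None of the 4 passed the threshold.

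Against the group labelled oocyte, most members differed, in both directions. In SN, limma called 188 of the 277 tested members (67.9%, against 61.7% of all 29044 tested probes), 95 of them higher (34.3%, against 26.3%) and 93 lower (33.6%, against 35.3%). The others of equal GC content and Cy3 level were called higher at 30.4% and lower at 37.6%, where the 262 members with such neighbours gave 34.4% and 34%. The reverse complement gave 23.4% higher and 34.4% lower, and the mutated element 26.1% and 36.4%. The lower share is near its background, and the gap of the higher share to that of its neighbours was not tested. The 27 members marked on both SN arrays and no oocyte array passed the filter without oocyte. The reverse pattern held 0 members. Any of the 27 among the higher calls or the wide rises are no support of their own. Without adjustment 199 members (71.8%, against 65.3%) had a limma p under 0.05, and arrays did not overlap for 123 members higher in SN (44.4%, against 36.7%) and 115 lower (41.5%, against 44.8%). The balance of directions depended on the scaling. Median centring in place of loess moved the median of all tested probes from -0.091 to 0.45 and gave 160 members higher (57.8%, against 45.3% of all) and 12 lower (4.33%, against 8.43%).

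The SN minus oocyte differences of the members had a median of 0.032 (quartiles -0.94 and 0.89), against -0.091 over all tested probes, -0.09 for the reverse complement and -0.17 for the mutated element. After centring on neighbours of equal GC content and Cy3 level the median was 0.16 (quartiles -0.78 and 1.07). It was -0.02 for the reverse complement and -0.074 for the mutated element. The members' array medians of the centred ratio spread within groups with an SD of 0.066. They were -0.18 and -0.11 in oocyte and -0.0067 and -0.12 in SN, so the arrays of the groups overlapped on that measure. Single members ranged from -2.77 to 6.10. Differences of at least 2-fold numbered 63 higher (22.7%, against 19.7% of all tested probes) and 62 lower (22.4%, against 23.9%), of which 61 and 62 passed the test, and at least 8-fold changes numbered 13 higher (4.69%, against 4.54% of all tested probes) and 0 lower (against 1.42%). The centred median ranged from 0.021 without the filter on dim probes to 0.27 with the authors' processed values, and stayed above 0 under each setting run. Settings that change only the fitted spread left it at 0.16 by construction. The gap to the reverse complement did not hold under each setting. With probes well above background in Cy3 on all arrays, the members gave 0.17 and the reverse complement 0.15. With both channels well above background on all arrays these were 0.14 and 0.18.

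In NSN, limma called 182 of the 277 members against oocyte (65.7%, against 60.7% of all 29045 tested probes). Higher were 83 (30%, against 25.4%) and lower 99 (35.7%, against 35.3%). The 22 members marked on both NSN arrays and no oocyte array passed the filter without oocyte. Any of them among the higher calls are no support of their own. The neighbours of equal GC content and Cy3 level gave 28.9% higher and 38.1% lower, where the 262 members gave 29.4% and 36.3%. The median difference was -0.049 (quartiles -0.93 and 0.76), against -0.11 over all tested probes. The centred median was 0.064 (SD of array medians 0.04), against 0.02 for the reverse complement. The members' array medians of the centred ratio, -0.12 and -0.14 in NSN, lay between those in oocyte (-0.18 and -0.11). With probes well above background in Cy3 on all arrays, the centred median of the reverse complement was the higher, at 0.16 against 0.078 for the members. With both channels well above background on all arrays these were 0.22 and 0.074. At least 2-fold higher were 57 members (20.6%, against 18.8%) and lower 60 (21.7%, against 23.2%), and 191 (69.0%, against 64.6%) had an unadjusted limma p under 0.05. Arrays did not overlap for 111 higher (40.1%, against 35.7%) and 121 lower (43.7%, against 45.3%). SN and NSN were set against one and the same pair of oocyte arrays. Median centring gave 147 members higher (53.1%, against 40.6% of all) and 19 lower (6.86%, against 8.84%).

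The members with the widest rise were dim in the oocyte pools. Z00050270-1 measured -0.12 and 0.47 in oocyte, then 6.16 and 6.38 in SN and 6.37 and 6.27 in NSN. In oocyte it was well above background on 1 of 2 arrays. In Cy5 it stayed below that mark on both oocyte arrays and was higher by 1.32 with SN and NSN, so its oocyte ratio rests on dim signal. The fitted differences were 6.10 in SN (limma adjusted p = 1.72e-05) and 6.15 in NSN (limma adjusted p = 2.07e-05), and over the settings run they lay between 4.43 and 7.52 and between 4.35 and 7.61. Z00064768-1 separated all 3 groups, at -3.24 and -3.05 in oocyte, -0.35 and 0.19 in NSN, and 1.84 and 1.86 in SN. In oocyte it was not well above background. Its mean Cy3 level on the log2 scale was 14.26 in SN, 12.21 in NSN and 8.30 in oocyte, where it is a limit. The ratios, which also hold Cy5, differed by 5.00 in SN (limma adjusted p = 2e-05) and by 3.06 in NSN (limma adjusted p = 8.29e-05), less than the Cy3 levels did. Its NSN minus SN difference of -1.93 did not pass the test (limma adjusted p = 0.138). Z00017827-1, at 4.97 and 4.70 in SN and 4.56 and 5.14 in NSN, was not well above background in oocyte, at -0.18 and -0.05. In Cy3 it was at least 19.5-fold higher in SN and at least 19.3-fold higher in NSN, bounds that set the mean Cy3 level against the dim probe's own level, or the lowest detected level if that is higher. Its ratios differed by 4.95 (limma adjusted p = 2.33e-05) and 4.97 (limma adjusted p = 2.7e-05). Z00064768-1 and Z00017827-1 passed the filter only through SN and NSN, where they are high, so these p-values are no support of their own.

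The members with the widest fall remained measurable in every pool. Z00005790-1 measured 1.28 and 0.92 in oocyte, -1.68 and -1.67 in SN, and -1.29 and -1.19 in NSN. It fell by 2.77 in SN (SE 0.16, limma adjusted p = 4.86e-05), the largest fall of a member in that comparison. Z00034950-1, whose values in each pool are given above, fell by 2.74 in SN (SE 0.13, limma adjusted p = 2.75e-05) and by 2.08 in NSN (limma adjusted p = 7e-05). Z00034061-1 measured 3.90 and 3.76 in oocyte, 1.53 and 2.36 in SN, and 1.72 and 0.78 in NSN, and fell by 2.57 in NSN (SE 0.38, limma adjusted p = 0.00168). Its SN and NSN values overlapped. Z00075085-1 measured 3.28 and 3.75 in oocyte, 0.99 and 0.90 in SN, and 0.53 and 0.43 in NSN, a fall by 3.03 in NSN (SE 0.19, limma adjusted p = 6.2e-05), but its direction turned in Cy3 alone, which was 2.44 higher in NSN. Its Cy5 reference signal was 4.66 higher with SN and NSN than with oocyte, and the part of this in the fall was not tested. The reference moved at least 2-fold that way or the other for 28 of the 277 members (10.1%, against 7.96% of all tested probes).

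All 7 members with repeated elements were tested. Of the 7, 4 were called lower in SN than in oocyte and 1 higher, with the same counts in NSN, where over all tested probes 35.3% were lower and 26.3% higher in SN, and 35.3% and 25.4% in NSN. None was called between NSN and SN. Z00007901-1, with 2 copies of TGTAAATA, was among the brightest against the reference, at 6.16 and 6.50 in oocyte, 5.31 and 5.50 in SN, and 5.45 and 5.27 in NSN. It fell by 0.92 in SN (SE 0.17, limma adjusted p = 0.00434), but under median centring the difference was 0.39. Z00017964-1 measured 1.73 and 2.19 in oocyte and 0.96 and 0.95 in SN, and fell by 1.01 (SE 0.19, limma adjusted p = 0.00429). Its Cy5 reference also differed, by -1.18 for SN and NSN minus oocyte, and the part of this in the ratio was not tested. Z00036051-1 fell by 1.1 (limma adjusted p = 0.00122) and Z00057925-1 by 0.94 (limma adjusted p = 0.00776), both with the sign turned under median centring, at 0.26 and 0.71. Z00025569-1 rose by 1.41 in SN (SE 0.13, limma adjusted p = 0.00025), from 0.00032 and 0.15 in oocyte to 1.44 and 1.52. Z00024716-1, which holds TGTAAATA and TGTACATA a base apart, measured 4.89 and 5.51 in oocyte, 4.96 and 5.28 in SN, and 5.47 and 5.57 in NSN. Its oocyte values overlapped both other groups, SN and NSN did not overlap, and no difference was called. Z00023317-1, with 3 copies of TGTAGATA, was not well above background in oocyte and was not called in either comparison (limma adjusted p = 0.132 in SN and 0.0716 in NSN), though with a replicate block the latter was called. The median SN minus oocyte difference was -0.92 over the 7 and 0.073 over the 270 tested members with 1 element, a description of few probes. Centred on neighbours of equal GC content and Cy3 level, these medians lay closer together, at -0.44 and 0.17. For NSN minus oocyte the centred medians were -0.12 and 0.064.

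The members were also described by the form and position of the element. The median SN minus oocyte difference was 0.13 for the 114 tested members with A at N, 0.19 for the 63 with C, 0.059 for the 29 with G and -0.22 for the 71 with T. Each form covered both directions, with 43 called higher and 35 lower for A, 21 and 22 for C, 11 and 6 for G, and 20 and 30 for T, beside 26.3% higher and 35.3% lower over all tested probes. The quartiles were -0.79 and 0.98 for A and -1.22 and 0.60 for T. Elements starting at bases 1 to 18, 19 to 35 and 36 to 53 of the probe gave medians of 0.092, -0.08 and 0.22. Members with the cytoplasmic polyadenylation element letters TTTTAT or TTTTAAT were few, 17 of 352 (4.83%, against 4.14% of all probes), and the 15 tested had a median of -0.38 with 3 called higher and 7 lower. Other tested probes with these letters were called higher at 23.5% and lower at 39.8%. The pentamer ATTTA, the core of AU-rich elements, was in 43 members (12.2%, against 7.25%), and the 33 tested had a median of 0.088. Shares of such letters were not matched for GC content, whose median was 36.7% in the members and 43.3% in all probes. The variant poly(A) hexamer ATTAAA was in 15 members, 4.26% against 3.19% of all probes. Of the 11 of these that were tested, 5 were called higher in SN and 0 lower, and in NSN 6 and 0. Other tested probes with ATTAAA were called higher in SN at 38.0% and lower at 28.4%, and in NSN at 35.7% and 29.3%. Over all tested probes the NSN shares were 25.4% and 35.3%.

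The brightest member in Cy3 was Z00052219-1 (gttcttgtaaatcTGTAAATAgcttcaata). Its log2 ratio was 2.98 and 3.39 in oocyte, 2.99 and 3.05 in SN, and 3.04 and 2.99 in NSN. The groups lay close together and no difference was called, with a SN minus oocyte difference of -0.16 (SE 0.17, limma adjusted p = 0.446). Both dyes were dimmer with SN and NSN than with oocyte, Cy5 by a difference of -1.52.

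No 2 members had the same sequence, but 24 formed 12 pairs that share 20 or more bases in a row and so may read the same transcript. Both pairs shown here were taken first by identifier.
Z00006047-1: tataaatattccaggTGTATATAgagagct
Z00075559-1: gctataaatattccaggTGTATATAgagag
Z00019782-1: gggacccaggaTGTAGATAttgtacaaagg
Z00037729-1: gggacccaggaTGTAGATAttgtacaaagg
In the first pair the NSN minus SN differences were 0.30 and 0.33 and the SN minus oocyte differences -0.50 and -0.64, and in the second pair -0.16 and 0.045, and -0.75 and -1.31. In 8 pairs both probes were tested, and the median gap between the NSN minus SN differences of a pair was 0.086 and the widest 0.43, with the same sign in 6 of 8 pairs. For SN minus oocyte the median gap was 0.29, and all 8 pairs had the same sign. The SN minus oocyte differences of both pairs passed the test (limma adjusted p = 0.013, 0.00638, 0.0127 and 0.00149), with the sign turned under median centring for all but Z00037729-1. In the second pair the Cy5 reference also differed, by -1.19 and -1.07 for SN and NSN minus oocyte, and the part of this was not tested.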

How the data were processed

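Oocytes of 6 pools were measured on arrays with 60-base probes. Per the file headers, the authors used Agilent Feature Extraction 9.5.1.1; the deposited files give spot intensity and background in each channel, not normalised, and a log10 ratio of Cy5 over Cy3, turned here to Cy3 over Cy5. The authors' processed table is on a log10 scale, as its values tracked the deposited Cy3 signal (r from 0.9938 to 0.9977 over probes); its column medians were 2.477 and 2.439 (oocyte), 2.574 and 2.563 (SN), and 2.546 and 2.567 (NSN), and its centring is not known. Where an array had 2 scans, the one with the larger summed signal was used. Intensity was corrected with normexp (offset 50) and loess in limma 3.58.1 (R 4.3.3), control spots at weight 0, and the log2 ratios of spots of a probe were averaged. Probes whose Cy3 signal exceeded background clearly, by the scanner's mark, on 2 or more of 6 arrays were tested across all probes with limma's moderated models and Benjamini-Hochberg adjustment (adjusted p under 0.05, two-sided). NSN against SN was fitted on 4 arrays, the comparisons with oocyte on 6. For the comparison at equal GC content and Cy3 level, each difference was centred on the median of other tested probes with as many G and C bases in the same of 10 classes of mean Cy3 level, where at least 10 existed.

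Named probes were the called members with the largest differences whose groups did not overlap and which were well above background on each array of the higher group, or by p where too few were called, 2 higher and 2 lower per comparison; besides, members with repeated elements, the first 2 pairs sharing 20 bases, and the brightest. Members and lists were chosen with earlier results of these data known. Uneven spots were dropped. Alternatives covered background, normalisation, scan, filter, slide, replicates and the member rule. The gene lists and markers fixed for this work were not used, as probes carry no gene names.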

Additional observations from a re-analysis of the deposited data

How the results depend on the processing

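Under the alternatives, 246 values of the member counts and medians stayed within 1.5 times the count or within 1 SD of the array medians, and 36 did not. Part of the 246 could not move, so their number is no measure of stability. Blocks and the choice of arrays for the spread leave the medians as they are. Leaving out an array of the group not compared repeats the fit on the 4 arrays of the 2 groups. With median centring in place of loess, 3 members were called lower in NSN than in SN (1.08%, against 0.372% of all tested probes), calls against oocyte became 160 higher and 12 lower in SN and 147 and 19 in NSN, and the member medians became -0.086 (NSN minus SN), 0.86 and 0.69. With all 6 arrays in one fit 2 members were called lower in NSN (0.722%, against 0.3% of all). The NSN minus SN median was 0.076 when Cy3 alone was scaled to the 75th percentile and 0.053 when it was quantile-normalised. For SN minus oocyte the median of members was 0.10 with the deposited log ratio, -0.17 with Cy3 alone at the 75th percentile, 0.12 with the authors' processed values, -0.048 with no filter, and -0.14 with probes well above background on all arrays in Cy3 or in both channels. For NSN minus oocyte these were 0.075, -0.19, 0.047, -0.055, -0.20 and -0.21, and -0.12 without ATTAAA and the reversed hexamers. The centred SN minus oocyte median was 0.26, 0.23, 0.27 and 0.021 with the deposited ratio, Cy3 alone at the 75th percentile, the authors' values and no filter. That of NSN minus oocyte was 0.18, 0.15 and 0.0078 with the deposited ratio, Cy3 alone and no filter, 0.11 with offset 16, 0.12 with either coarser set of strata, and 0.011 to 0.11 with 1 array left out. Calls lower in NSN than oocyte were 64 of the 184 members that the authors' processed values hold (34.8%, against 31.1% of all), where all 277 gave 35.7%. With 1 SN array left out the member median of SN minus oocyte was -0.015 or 0.04, and with 1 oocyte array left out 0.024 or 0.021. With 1 NSN array left out that of NSN minus oocyte was -0.11 or -0.00089, and with 1 oocyte array left out -0.069 or -0.0079. Counts of calls from these fits are not given, the lone array being given the spread of the rest. The deviations of same-numbered arrays correlated with r = 0.207 (SN and NSN), -0.0225 (SN and oocyte) and 0.149 (NSN and oocyte), so the numbers were not taken as pairs. The replicate block gave 0 called NSN against SN (0.0% of all tested probes). Against oocyte it gave 92 higher (33.2%, against 26.7% of all) and 93 lower (33.6%, against 35.8%) in SN. In NSN it gave 83 higher (30%, against 25.7%) and 99 lower (35.7%, against 35.8%). Of the named probes it changed only the call of Z00023317-1, NSN minus oocyte, where limma gave an adjusted p = 0.0355.

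Of the named probes, Z00075085-1 turned its sign in SN to 0.67, 2.41 and 3.26 and in NSN to 0.28, 2.44 and 3.35 with median centring and Cy3 alone (75th percentile, quantile). With median centring the SN minus oocyte difference turned to 0.26 for Z00036051-1, 0.39 for Z00007901-1, 0.71 for Z00057925-1, 1.27 for Z00006047-1, 1.15 for Z00075559-1 and 0.16 for Z00019782-1. The NSN minus oocyte difference turned to 0.65 for Z00023567-1, 0.16 for Z00036051-1, 0.25 for Z00007901-1, 0.60 for Z00057925-1 and 0.071 for Z00019782-1. The cause of these shifts was not tested. The comparisons with oocyte are limited by signal, since those arrays had the fewest detected probes.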

Other observations

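The bases beside the element differed in how often the probe gave signal. Of members with T before the element 87.4% were tested, with C 83.5%, with G 75% and with A 69.5%. After the element the shares were 82.8% with G, 78.8% with T, 76.9% with C and 73.8% with A. A further TGTA, beside the one the rule requires, lay in 141 of the 352 probes, and 87.9% of these were tested against 72.5% of the rest. The median SN minus oocyte difference was 0.23 for the 51 tested members with G before the element and -0.18 for the 73 with A.

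Patterns of detection in a group but not in another had shares near those of all probes. Detection on all 6 arrays was more frequent in the members (61.6%, against 48.7% of all probes), and on no array less frequent (17%, against 23.2%). Detected in Cy3 in both SN pools and in no oocyte pool were 27 of the 352 (7.67%, against 8.71% of all probes), and in both oocyte pools and no SN pool 0 (against 0.39%). For NSN these were 22 (6.25%, against 7.53%) and 0 (against 0.545%). Detected in both SN pools and in no NSN pool were 3 members (0.852%, against 1.08%).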
